A study of Mus musculus with 16 samples.

Results

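Parp9, Dtx3l, Parp14, Parp10, Parp11, Parp12 and Parp8, which are linked to the interferon response to differing degrees, were followed in liver neutrophils together with Parp1, a relative that is not known as an interferon gene. These 8 genes were taken by name from the mouse genome annotation, out of 54532 identifiers in the count table, and all 8 were among the 9851 genes that passed the filter on low counts. The samples were neutrophils sorted from the livers of 8 C57BL/6 mice, numbered 2 to 9, whose blood cells had been replaced by marrow of 2 donor kinds (mixed chimeras). Wild-type hosts received about 1000 cGy, then 50% CD45.1 wild-type marrow and 50% CD45.2 Ifngr1-/- marrow, and were left for 8 weeks. All of them then bore a flank tumour of the MC38 colon carcinoma line, were given an agonist antibody to CD40 (aCD40) 1 week later, and gave their livers 2 days after the antibody. Each mouse gave 1 library of wild-type neutrophils (WT) and 1 of neutrophils without the receptor for interferon gamma (Ifngr1_KO), so there were 8 libraries a group and no untreated or tumour-free group. The comparison asks what a neutrophil's own interferon gamma receptor changes when both genotypes share 1 liver. Within each mouse the donor, the CD45 type and the sort gate differed along with the genotype, so the receptor and these factors cannot be told apart. The sources used here give no ages, sexes or host CD45 type.

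Proteins of the PARP family move ADP-ribose from NAD onto other molecules. PARP1 builds long chains of it at broken DNA, while most of the other members studied here add single units or are inactive, and several are induced by interferons and act against viruses. DTX3L is a ubiquitin ligase that works as a complex with PARP9, and PARP9 and PARP14 carry macrodomains, folds that bind ADP-ribose. Neutrophils are short-lived cells that respond to interferons, with interferon gamma acting through its own receptor on the cell surface.

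The 16 libraries held 12.5 to 21.7 M counts. Ifngr1_KO libraries held fewer counts than WT libraries (13.9 ± 1.502 against 16.9 ± 3.27 M, SD, n = 8; exact two-sided sign-flip test over the 8 mice, p = 0.0156, adjusted p = 0.0313 over 2 library measures). Ifngr1 itself was lower in every Ifngr1_KO library than in any WT library, at 83.9 ± 29.5 against 305 ± 46.6 CPM (SD, n = 8; CPM are counts divided by the TMM-scaled library size; log2 fold change -1.94, SE 0.20, edgeR adjusted p = 2.50e-04). Every Ifngr1_KO library still held Ifngr1 counts, 458 to 1870 of them. The source of these counts was not tested, and they do not measure the receptor protein. Mitochondrial mRNAs took 0.595 ± 0.272% of WT and 1.39 ± 0.656% of Ifngr1_KO counts (SD, n = 8), with a higher share in the Ifngr1_KO library of 6 of 8 mice (p = 0.0313 in the same exact test, 0.0313 adjusted). It was highest, 2.503%, in the Ifngr1_KO library of mouse 7. Of 8 neutrophil markers edgeR called none (DESeq2 1 lower, limma-voom 2 lower, and 2 lower at an unadjusted edgeR p under 0.05), with summed levels of 32011 to 54243 CPM in WT and 27318 to 83275 CPM in Ifngr1_KO. Markers of Kupffer cells and of monocytes summed to less in Ifngr1_KO in 8 of 8 mice (35.8 to 119 against 15.9 to 58.2 CPM for 6 Kupffer cell markers, 2142 to 3404 against 1456 to 2603 CPM for 4 monocyte markers). Of these edgeR called 1 Kupffer cell marker, Adgre1, and 1 monocyte marker, Ly6c2, both lower in Ifngr1_KO. Of the Kupffer cell markers Vsig4 was at 0 in every library and Clec4f reached at most 0.505 CPM, and Adgre1, with medians of 77.6 and 36.3 CPM, made up most of the sum. The monocyte sum was mostly Csf1r (medians of 1506 CPM in WT and 1342 in Ifngr1_KO) and Ly6c2 (1202 and 728 CPM). Cx3cr1 went the other way, with medians of 9.77 and 15.6 CPM, and Ccr2 was near the floor, at 0.856 and 0.963 CPM. In these bulk samples fewer cells of a type and less RNA per cell cannot be told apart, and the part of these cells in the results below was not tested.

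Of the 8 genes, 2 were lower in Ifngr1_KO at an adjusted p under 0.05, Dtx3l and Parp10, none was higher, and 6 were not called. At an unadjusted p under 0.05, 6 of the 8 were lower and none was higher. That unadjusted threshold was passed by 1602 of the 9851 genes tested, in either direction. At the adjusted threshold, 2.32% of all genes tested were called lower and 0.477% higher. All 8 fitted fold changes were below 0 on the log2 scale, and 7 of the 8 genes, all but Parp1, were lower in Ifngr1_KO in at least 7 of 8 mice. Of all 9851 genes tested, 1136 were lower in 7 or 8 mice. The median log2 fold change was -0.66 for the 8 genes and 0.05 for all genes tested. Fold changes are Ifngr1_KO over WT from the quasi-likelihood F-test of edgeR, blocked by mouse, with Benjamini-Hochberg adjustment over the 9851 genes. With DESeq2 in place of edgeR 4 of the 8 were called (Dtx3l, Parp10, Parp9 and Parp11). DESeq2 also called more genes in all, 1060 (572 lower and 488 higher) against 276 with edgeR. With the mitochondrial share added as a covariate in edgeR none of the 8 was called, and 93 genes were called in all against the same 276.

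**Figure D1:**
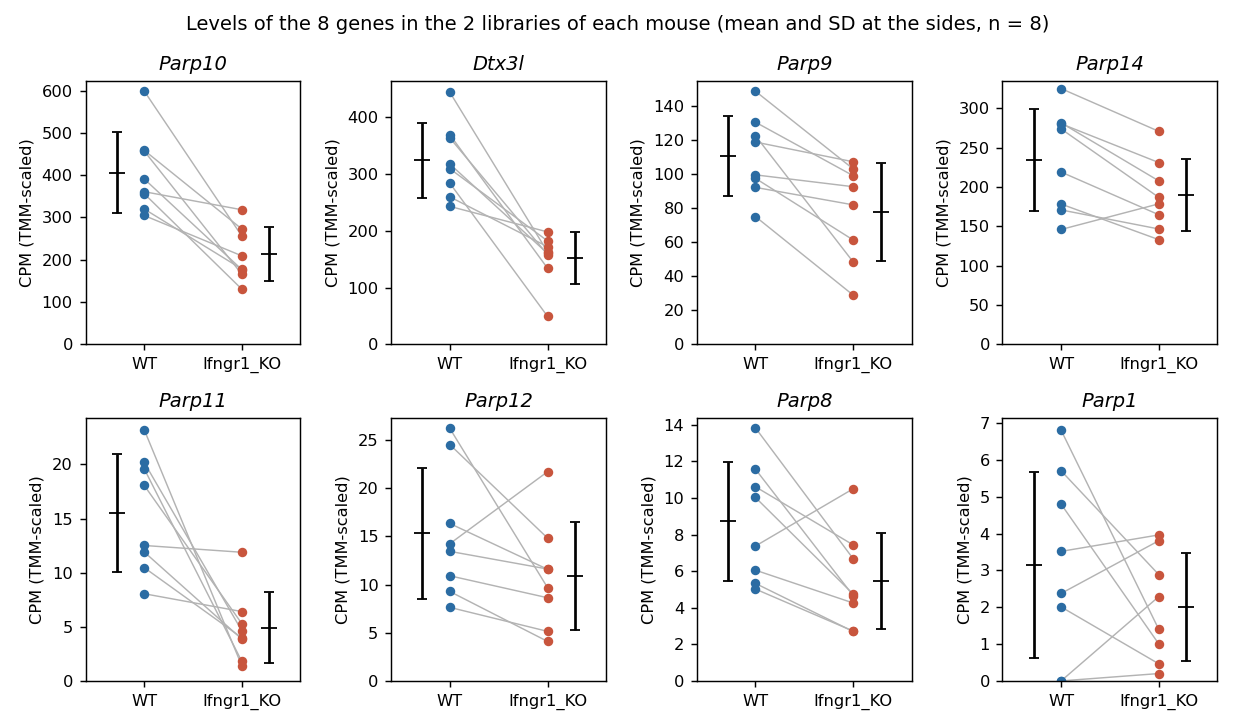
CPM (TMM-scaled, y axis, from 0) of the 8 genes in the WT (blue) and Ifngr1_KO (red) libraries, with a grey line joining the 2 libraries of a mouse and the mean and SD (n = 8) beside each group. The groups are apart for Dtx3l (WT from 243 CPM, Ifngr1_KO up to 198 CPM) and overlap for the other 7 genes.

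Parp10 had the highest level of the 8 genes per length of transcript. Per kilobase of annotated exon, WT libraries held 95.04 ± 22.6 CPM of Parp10, 56.6 ± 11.6 of Dtx3l, 25.2 ± 6.96 of Parp14 and 22.7 ± 4.89 of Parp9 (SD, n = 8). The other genes were far lower, at 3.83 ± 1.703 for Parp12, 2.21 ± 0.775 for Parp11, 0.983 ± 0.365 for Parp8 and 0.595 ± 0.476 for Parp1. The mean levels had the same order in Ifngr1_KO, from 49.9 ± 14.8 CPM per kilobase for Parp10 to 0.378 ± 0.276 for Parp1. Parp10 stood above Dtx3l and Parp9 above Parp12 in all 8 libraries of both genotypes. Parp14 and Parp9 were neighbours that did not differ beyond their spread in WT, where Parp14 was the higher in 4 of 8 libraries, but it was the higher in 7 of 8 in Ifngr1_KO. Parp11 was above Parp8 in 8 of 8 WT and 5 of 8 Ifngr1_KO libraries. These lengths are the union of all annotated exons, so a gene whose short isoforms dominate is understated.

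Dtx3l encodes the ubiquitin ligase that pairs with PARP9 (ENSMUSG00000049502, chromosome 16, 35926511 to 35939151 in mm10, minus strand, protein coding). From mouse 2 to mouse 9 its WT levels were 243, 444, 310, 260, 318, 284, 364 and 370 CPM. Its Ifngr1_KO levels, mouse by mouse, were 198, 163, 182, 172, 160, 49.3, 158 and 134 CPM. Every Ifngr1_KO library was below every WT library, a separation shown by 1.48% of all genes tested in this direction. Dtx3l fell by 1.15 on the log2 scale (SE 0.22, 95% interval -1.64 to -0.67, edgeR adjusted p = 0.0182), so that 45.02% of the WT level was left, and it was lower in 8 of 8 mice.

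The Ifngr1_KO library of mouse 7 was the lowest by far, and without that mouse Dtx3l had a log2 fold change of -0.97 (edgeR adjusted p = 0.00645). The call was lost without mouse 3, 6, 8 or 9 (adjusted p = 0.0740, 0.0507, 0.0654 and 0.0628) at -1.18 to -1.103, and with the mitochondrial covariate (-0.63, 0.515). Over all 17 alternatives its adjusted p ran from 2.84e-05 to 0.515.

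The promoter of Dtx3l is shown because transcripts of Parp9, its partner gene, start inside it on the opposite strand. The promoter table used here, made from RefSeq on GRCm38.p6, gave windows from 250 bases before to 50 after the start and matched 5 of the 8 genes (Dtx3l, Parp11, Parp12, Parp8 and Parp1). The Dtx3l window runs from 35938978 to 35939277, and 4 of the 7 annotated Parp9 transcripts start inside it. It is set on a RefSeq start, and its upstream part, from 35939028 to 35939277, begins inside the Dtx3l span given above, which reaches 35939151. Of its 250 upstream bases 179 are in annotated exons of either gene. The 71 bases farthest upstream, which are in none, read as follows on the minus strand.
Dtx3l, chr16:35939207-35939277: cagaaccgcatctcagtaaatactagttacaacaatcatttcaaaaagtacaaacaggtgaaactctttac
No base is in capitals, since none of 3 motifs searched on both strands was found in the whole window of 300 bases. These were GAAANNGAA, the core of the interferon-stimulated response element, and TTCNNNGAA and TTCCNGGAA, a loose and a strict form of the gamma-activated site, where every strict match is also a loose one. They occur in 8.56%, 8.30% and 1.15% of the 32851 promoter windows in the table. An absent match says only that these letters are not in this window.

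Parp9, which encodes the macrodomain protein that binds DTX3L (ENSMUSG00000022906, chromosome 16, 35938470 to 35972605, plus strand), was not called. From mouse 2 to mouse 9 its WT levels were 92.3, 149, 119, 99.7, 123, 75.2, 97.7 and 131 CPM. In Ifngr1_KO the levels were 82.1, 103, 107, 92.7, 48.4, 28.9, 61.4 and 99.2 CPM. Mice 6 and 7 had the 2 lowest Ifngr1_KO libraries, 3 Ifngr1_KO libraries lay below all WT libraries, 4 WT libraries lay above all Ifngr1_KO libraries, and the rest overlapped. The log2 fold change was -0.59 (SE 0.18, 95% interval -0.98 to -0.20, edgeR adjusted p = 0.117), and the Ifngr1_KO level was the lower one in 8 of 8 mice. DESeq2 gave an adjusted p of 0.0266 at -0.58, the only one of 17 alternatives that called Parp9 (range 0.0266 to 0.867).

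The spans of Parp9 and Dtx3l overlap by 682 bases at their starts, and the libraries do not mark strand. The 3' part of Parp9 also overlaps 5854 bases of Gm15564, an antisense gene with mean levels of 34.7 CPM in WT and 69.02 CPM in Ifngr1_KO (log2 fold change 0.80, edgeR adjusted p = 0.251). How reads of these spans were shared out cannot be read from the counts.

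Within each library Dtx3l was compared with Parp9 as a ratio of CPM. From mouse 2 to mouse 9 the WT ratios were 2.63, 2.98, 2.60, 2.61, 2.59, 3.78, 3.73 and 2.83, and the Ifngr1_KO ratios 2.41, 1.58, 1.697, 1.85, 3.31, 1.704, 2.58 and 1.35. The mean went from 2.97 ± 0.504 in WT to 2.06 ± 0.652 in Ifngr1_KO (SD, n = 8), and the ratio was lower in Ifngr1_KO in 7 of 8 mice, all but mouse 6. On the log2 scale the Parp9 difference was less negative than that of Dtx3l by 0.57 ± 0.501 (SD, n = 8). The exact two-sided sign-flip test gave p = 0.0234, and 0.188 after adjustment over the 8 differences between genes tested this way. The 2 genes are thus not shown to respond to different degrees.

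**Figure D2:**
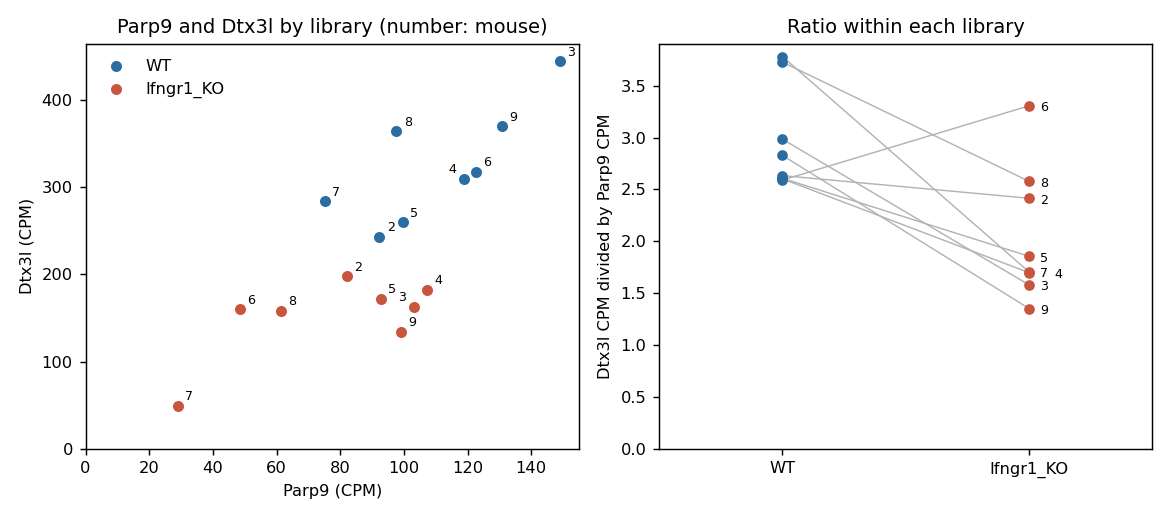
Left, Dtx3l against Parp9 in CPM, 1 point per library, numbered by mouse. Right, the ratio of the 2 in the WT and Ifngr1_KO library of each mouse, joined by lines, which is lower in Ifngr1_KO in 7 of 8 mice and is 2.59 in WT and 3.31 in Ifngr1_KO in mouse 6.

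Parp14 encodes the largest of the macrodomain PARPs, a mono-ADP-ribosyltransferase known as a cofactor of STAT6 (ENSMUSG00000034422, chromosome 16, 35832874 to 35871544, minus strand). It lies 54.97 kb from Dtx3l. WT libraries ran from 146 to 325 CPM with a median of 246, and Ifngr1_KO libraries from 133 to 271 CPM with a median of 183. The groups overlapped in part, with 1 Ifngr1_KO library below all WT libraries and 4 WT libraries above all Ifngr1_KO libraries, and the Ifngr1_KO level was higher in mouse 2. The log2 fold change was -0.29 (SE 0.11, 95% interval -0.53 to -0.04, edgeR adjusted p = 0.220), and no alternative called it (adjusted p of 0.108 to 0.902).  In 8 of 8 mice the log2 difference of Dtx3l was below that of Parp14, a comparison made after the values were seen and not tested.

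Across mice within a genotype the 3 genes of this cluster were compared in pairs, which makes 6 relations over 8 libraries each. The test is against no relation at all, so a small p does not mark a tie particular to the cluster. Over the 16 libraries, with each genotype's mean removed, Parp10 on chromosome 15 had r = 0.761 with Parp9, 0.599 with Dtx3l and 0.347 with Parp14. On that measure the pairs within the cluster had r = 0.534 to 0.772. In WT, Dtx3l and Parp14 went together (Pearson r = 0.860, exact permutation p = 0.00704, adjusted p = 0.0423; Spearman rho = 0.905, exact permutation p = 0.00456, adjusted p = 0.0274), with r = 0.890 without the 2 libraries farthest from the median of Dtx3l. The adjusted p passed 0.05 with library totals in place of TMM (r = 0.851, 0.0653) and without mouse 7 (r = 0.853, 0.0750). Parp9 had r = 0.714 with Dtx3l and 0.704 with Parp14 in WT (exact permutation p = 0.0475 and 0.0531, adjusted p = 0.0638 for both; rho = 0.762 for both, p = 0.0368, adjusted p = 0.0551), and r = 0.5995 and 0.707 without the 2 farthest libraries.

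In Ifngr1_KO the relations with Dtx3l rested on the farthest libraries, that of mouse 7 among them. Parp9 and Dtx3l had r = 0.784 (exact permutation p = 0.0510, adjusted p = 0.0638; rho = 0.50, p = 0.216, adjusted p = 0.259), which went to -0.02 without the 2 farthest libraries. Parp9 and Parp14 had r = 0.706 (exact permutation p = 0.0495, adjusted p = 0.0638; rho = 0.762, p = 0.0368, adjusted p = 0.0551), and 0.396 without the 2 farthest. Dtx3l and Parp14 had r = 0.452 (exact permutation p = 0.296, adjusted p = 0.296; rho = 0.119, p = 0.793, adjusted p = 0.793), and -0.48 without the 2 farthest.

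Of the genes around the cluster none within 200 kb was called. Of 19 other genes annotated there 6 were tested, of which edgeR, DESeq2 and limma-voom called 0 and 2 had an unadjusted edgeR p under 0.05, with a median log2 fold change of 0.39. Hspbap1 on the Parp14 side had -0.40 (SE 0.16, adjusted p = 0.243), from 40.002 ± 9.998 CPM in WT to 31.3 ± 11.3 in Ifngr1_KO (n = 8, SD). Stfa2l1, a member of the stefin family of protease inhibitors, had 0.40 (SE 0.22, adjusted p = 0.405). Dirc2, Kpna1 and Fam162a were at low levels, with mean levels of 2.43 to 11.07 CPM and log2 fold changes of 0.39, 0.59 and 0.07. Within 500 kb 1 of 14 other genes tested was called, 2010005H15Rik, which starts 282 kb from the Dtx3l start and had -2.70 (SE 0.25, adjusted p = 1.14e-04).

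**Figure D3:**
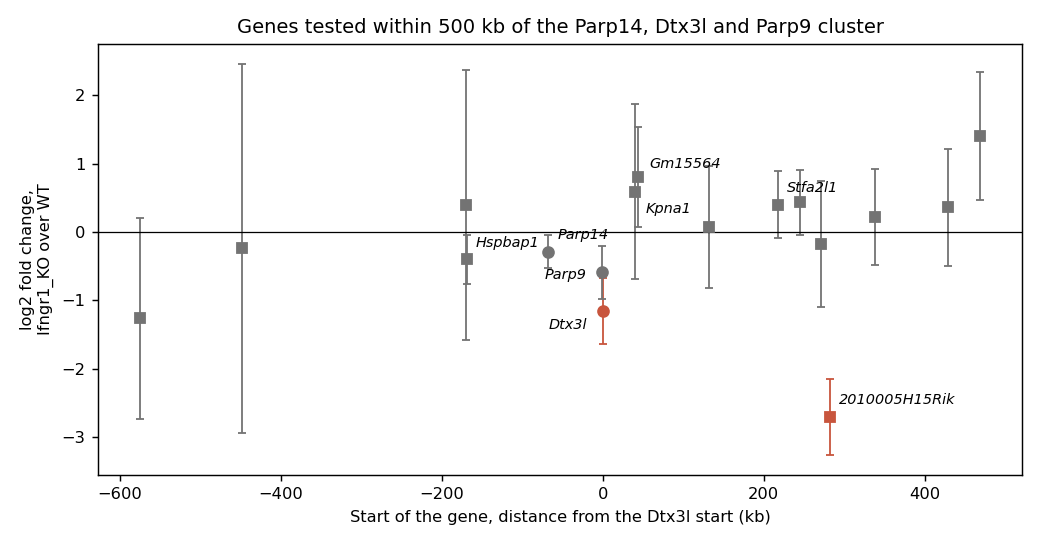
Log2 fold change with its 95% interval (edgeR) of each gene tested within 500 kb of the cluster, against the distance of its start from the Dtx3l start in kb. Circles are the 3 genes of the cluster, squares other genes, and red marks an adjusted p under 0.05, which Dtx3l and 2010005H15Rik had.

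Parp10 encodes a mono-ADP-ribosyltransferase that restricts several viruses (ENSMUSG00000063268, chromosome 15, 76231174 to 76243441, minus strand, protein coding). From mouse 2 to mouse 9 its WT levels were 320, 599.6, 459, 361, 458, 357, 391 and 305 CPM. In Ifngr1_KO the levels were 178, 256, 273, 318, 166, 130.2, 177 and 209 CPM. Only the Ifngr1_KO library of mouse 5 reached into the WT range, and 7 Ifngr1_KO libraries lay below all WT libraries. Parp10 fell by 0.95 on the log2 scale (SE 0.16, 95% interval -1.30 to -0.61, edgeR adjusted p = 0.00718), to 51.6% of the WT level, and was lower in 8 of 8 mice. The change within a mouse ran from -1.47 in mouse 6 to -0.18 in mouse 5.

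The Parp10 call held in 16 of 17 alternatives, including each omission of 1 mouse (adjusted p of 0.00338 to 0.0372). It was lost with the mitochondrial covariate, at a log2 fold change of -0.89 (adjusted p = 0.227). Parp10 shares 1401 bases with Plec on the same strand, a gene at 42.8 CPM in WT and 40.2 CPM in Ifngr1_KO.

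Parp11 encodes a mono-ADP-ribosyltransferase reported to lower the type I interferon receptor (ENSMUSG00000037997, chromosome 6, 127446840 to 127494261, plus strand). It had the largest fold change of the 8 genes, on few counts, and was not called. From mouse 2 to mouse 9 WT libraries held 236, 305, 280, 154, 358, 142, 178 and 322 counts, and Ifngr1_KO libraries 68, 27, 19, 80, 95, 47, 171 and 60. In CPM this was 8.06 to 23.2 with a median of 15.3 in WT, and 1.396 to 11.9 with a median of 4.31 in Ifngr1_KO. In 7 of 8 Ifngr1_KO libraries the level was below all WT libraries, and that of mouse 8 was within the WT range.

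The log2 fold change of Parp11 was -1.81 (SE 0.46, 95% interval -2.84 to -0.78, edgeR adjusted p = 0.0714), and the Ifngr1_KO level was the lower one in 8 of 8 mice. The change within a mouse varied from -3.94 in mouse 4 to -0.07 in mouse 8. Parp11 was called without the mouse block (-1.66, adjusted p = 0.0225) and by DESeq2 (-1.81, 7.25e-04), and its adjusted p reached 0.178 in the other alternatives.

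The window before the RefSeq start of Parp11 at 127446840 is shown because it was the only one of the windows of these genes with a match to a motif searched. Capitals mark 2 matches that share 3 bases, TTCGATTTC, which is the response element core read on the opposite strand (43 to 35 bases before the start), and TTCTTGGAA, a loose gamma-activated site (37 to 29 bases before the start).
Parp11, chr6:127446590-127446839, plus strand: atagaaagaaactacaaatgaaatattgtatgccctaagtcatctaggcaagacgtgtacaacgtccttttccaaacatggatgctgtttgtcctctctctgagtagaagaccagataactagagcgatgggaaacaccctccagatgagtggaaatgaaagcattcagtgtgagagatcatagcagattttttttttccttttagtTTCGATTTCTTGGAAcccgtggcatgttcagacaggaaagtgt
Of all promoter windows 8.56% hold the core, 8.30% the loose site and 1.07% both. The window was picked for having a match to any of the motifs, so the share with both is not the background of that choice. Of these 250 bases 40.4% are G or C, against a median of 52.4% over all windows and 52.8%, 73.6%, 74.8% and 61.6% for Dtx3l, Parp12, Parp8 and Parp1. The second RefSeq start of Parp11, at which the upstream window runs from 127453377 to 127453626, had 57.6% and no match. A match describes letters and is no evidence of binding.

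Parp12 encodes a zinc finger PARP with antiviral activity (ENSMUSG00000038507, chromosome 6, 39086410 to 39118349, minus strand). WT libraries ran from 7.63 to 26.2 CPM with a median of 13.8, and Ifngr1_KO libraries from 4.101 to 21.7 CPM with a median of 10.6. The groups overlapped, and mouse 7 had more in Ifngr1_KO than in WT (21.7 against 14.2 CPM). The log2 fold change was -0.54 (SE 0.25, 95% interval -1.09 to 0.004, edgeR adjusted p = 0.308), and -0.71 (adjusted p = 0.122) without mouse 7.

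Parp8 encodes a mono-ADP-ribosyltransferase whose function is little known (ENSMUSG00000021725, chromosome 13, 116854820 to 117025537, minus strand). WT libraries ran from 5.02 to 13.8 CPM with a median of 8.703, and Ifngr1_KO libraries from 2.703 to 10.5 CPM with a median of 4.705. Mouse 2 had the higher level in Ifngr1_KO, the 7 other mice had the lower, and the groups overlapped. The log2 fold change was -0.73 (SE 0.28, 95% interval -1.34 to -0.12, edgeR adjusted p = 0.212). Parp8 and Parp12 were called by none of the alternatives, with an adjusted p of at least 0.0601 and 0.0876. Markers of several other cell types summed to a like level. For T and NK cells this was 1.99 to 15.1 CPM in WT and 3.93 to 26.4 CPM in Ifngr1_KO, higher in Ifngr1_KO in 5 of 8 mice. For B or plasma cells it was 3.86 to 15.4 and 7.46 to 28.9 CPM, and for endothelial or stellate cells 5.66 to 17.1 and 2.84 to 14.4 CPM. Hepatocyte markers summed to more, 74.5 to 480 CPM in WT and 75.9 to 572 CPM in Ifngr1_KO. Erythroid or platelet markers also did, at 49.99 to 273 CPM in WT and 64.3 to 351 CPM in Ifngr1_KO. The part of these cells was not tested.

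**Figure D4:**
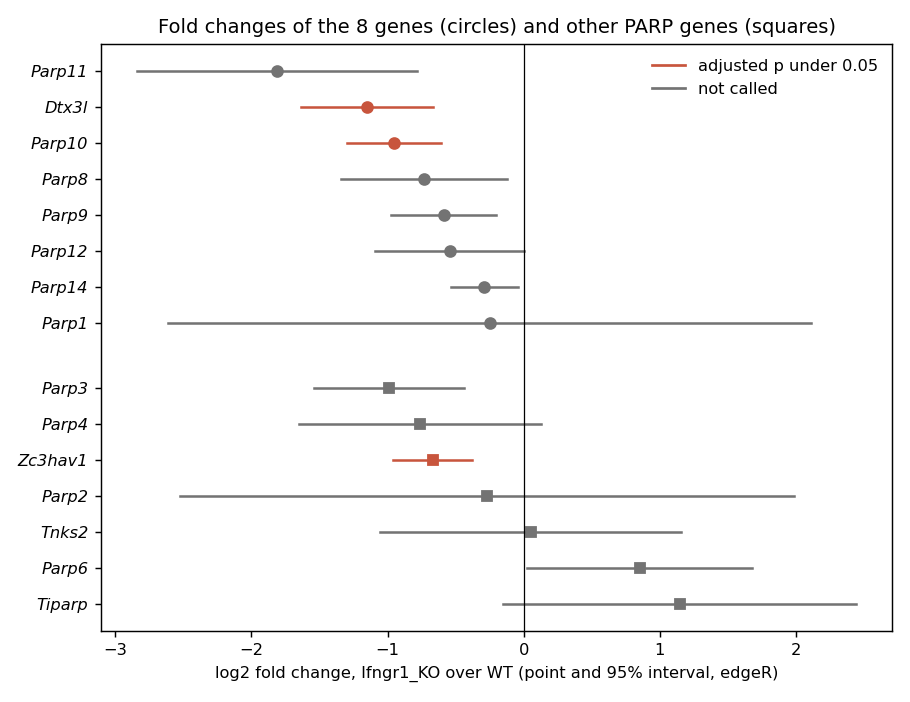
Log2 fold change, Ifngr1_KO over WT, with its 95% interval (edgeR) for the 8 genes (circles) and 7 other PARP genes (squares), red where the adjusted p was under 0.05. Parp10, Dtx3l and Zc3hav1 are red, and the intervals of Parp1 (-2.61 to 2.11) and Parp2 (-2.52 to 1.98) are the widest.

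Parp1, the DNA break sensor that makes most poly-ADP-ribose in other cells, was close to the floor of these libraries (ENSMUSG00000026496, chromosome 1, 180568924 to 180601254, plus strand). From mouse 2 to mouse 9 the WT libraries held 47, 0, 82, 109, 95, 0, 50 and 32 counts, and the Ifngr1_KO libraries 67, 3, 19, 36, 18, 27, 57 and 6. The WT level ran from 0 to 6.802 CPM and the Ifngr1_KO level from 0.1998 to 3.96 CPM, and 4 mice had the lower level in each genotype. The log2 fold change was -0.25 with a 95% interval from -2.61 to 2.11 (edgeR adjusted p = 0.931), so neither a 4-fold fall nor a 4-fold rise would lie outside it. Without mouse 4, 6 or 9 it was 0.14, 0.12 and 0.08.

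As a reference against which to set the other 7 genes Parp1 was therefore too imprecise. The within-mouse log2 difference of Dtx3l minus that of Parp1 was -1.07 ± 2.68 (SD, n = 8; exact two-sided sign-flip p = 0.359, adjusted p = 0.729 over 8 differences), and was below 0 in 4 of 8 mice. For Parp10 minus Parp1 it was -0.86 ± 2.44 (exact p = 0.391, adjusted p = 0.729). Parp11 minus Parp1 was the largest, -1.72 ± 2.34, below 0 in 6 of 8 mice (exact p = 0.0938, adjusted p = 0.375). The other 4 had mean differences of -0.62 to -0.20 (exact adjusted p of 0.729 to 0.828). Since Parp1 had 0 counts in the WT libraries of mice 3 and 7, these means depend on the prior count added before taking logs. With 0.5 in place of 2 the differences ran from -2.135 for Parp11 to -0.58 for Parp14 (exact adjusted p of 0.406 to 0.656). None of the 7 genes is thus shown to have changed more than Parp1. Parp1 lies 42.4 Mb from Ptprc, which encodes CD45, on the same chromosome.

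The rest of the PARP family gave 1 call among 7 genes tested, all of them outside the 8 above. Zc3hav1, the zinc finger antiviral protein that binds viral RNA and lacks PARP activity, fell from 121 ± 18.9 CPM in WT to 77.4 ± 18.4 CPM in Ifngr1_KO (SD, n = 8; log2 fold change -0.67, SE 0.13, edgeR adjusted p = 0.0207), in 8 of 8 mice. Its call was lost with library totals, with the mitochondrial covariate and without mouse 3, 4, 6, 8 or 9 (range over 17 alternatives 1.83e-04 to 0.515). Parp3, which acts at DNA breaks, was at 24.7 ± 6.24 CPM in WT and 13.03 ± 4.56 CPM in Ifngr1_KO (-0.99, SE 0.25, edgeR adjusted p = 0.0650). It was singled out after its values were seen, since each Ifngr1_KO library was below each WT library, and DESeq2 and limma-voom called it (adjusted p of 0.00245 to 0.726 over 17 alternatives). Tiparp, a target of the aryl hydrocarbon receptor, had the highest log2 fold change of the 7, 1.15 (SE 0.59, edgeR adjusted p = 0.362). Parp16 and Tnks were not tested, with at most 35 and 241 counts in a library.

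The other Deltex ligases and the genes for removal or binding of ADP-ribose had no called member with edgeR, DESeq2 or limma-voom. In each list 1 gene had an unadjusted edgeR p under 0.05, Dtx4 and H2afy, both higher in Ifngr1_KO. Dtx4 had 22.3 ± 5.89 CPM in WT and 29.6 ± 10.07 CPM in Ifngr1_KO (log2 fold change 0.39, SE 0.17, adjusted p = 0.293), Dtx2 had -0.19 (SE 0.27, adjusted p = 0.774), and Dtx3 had a mean of 1.04 CPM in WT. Dtx1 was not tested, with 2 counts at most. Among 5 tested genes for removal or binding of ADP-ribose, Adprh, which frees arginine of it, was the most counted, at 384 ± 59.4 CPM in WT and 387 ± 56.3 in Ifngr1_KO. Its log2 fold change was 0.01 with a 95% interval from -0.23 to 0.25. Oard1 had -0.59 (SE 0.30, adjusted p = 0.354). H2afy, at mean levels of 2.86 CPM in WT and 8.38 CPM in Ifngr1_KO, had 1.17 (SE 0.48, edgeR adjusted p = 0.256), and was lower in Ifngr1_KO in 1 of 8 mice.

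NAD, the substrate of these enzymes, is recycled by NAMPT. Of 10 genes tested for NAD synthesis and use 1 was called, Nampt, which fell from 264 ± 60.3 CPM in WT to 165 ± 44.5 CPM in Ifngr1_KO (SD, n = 8; log2 fold change -0.69, SE 0.15, edgeR adjusted p = 0.0291), in 8 of 8 mice. The call was lost in 8 of 17 alternatives, among them no mouse block, library totals, the mitochondrial covariate and 5 of the omissions of 1 mouse (without mouse 3, 4, 6, 8 or 9), with an adjusted p of up to 0.558. The list median was -0.38. Of 7 tested partners of PARP1 in strand break repair edgeR, DESeq2 and limma-voom called 0, and 0 had an unadjusted edgeR p under 0.05 (median 0.09), of which Aptx had 0.35 (SE 0.40).

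The median of the 8 genes, -0.66, lay between those of the usual targets of the 2 interferon types. The 8 genes were spread widely, from -1.81 for Parp11 to -0.25 for Parp1, and 6 of them were not called, so the median describes no single gene. Of 12 genes of interferon signalling 4 fell, among them Ifngr1 itself, Stat2 and Irf1, a transcription factor induced by interferon gamma (-2.40, SE 0.19). Stat2 had -1.18 (SE 0.19, adjusted p = 0.00631, and 0.293 with the mitochondrial covariate). Of 12 usual targets of interferon gamma 10 fell, with a median of -2.39. The log2 fold changes were -2.70 for Gbp2 (SE 0.13), -6.85 for Batf2 (SE 0.45), -2.94 for Gbp5, -2.53 for Igtp, -2.33 for Irgm1 and -2.07 for Tap1. Of 10 tested targets usually tied to type I interferon edgeR called none, with a median of -0.32, but 4 were lower at an unadjusted p under 0.05, and DESeq2 and limma-voom each called 4 lower. Irf7 was at 3938 ± 630 CPM in WT and 3464 ± 1121 CPM in Ifngr1_KO, and Oasl2 had -0.63 (SE 0.15, adjusted p = 0.0613, and 0.00511 to 0.805 over 17 alternatives, 4 of which called it). Irf7 had -0.24, and 0.03 with the mitochondrial covariate. The lists share these libraries, and differences between their medians were not tested.

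Of 6 genes for the conjugation of ISG15, a ubiquitin-like tag, and for ubiquitin enzymes, 3 fell and 3 were not called. Isg15, which encodes the tag and was listed with the type I interferon targets, was not called by edgeR either. It was at 749 ± 195 CPM in WT and 583 ± 166 CPM in Ifngr1_KO (log2 fold change -0.37, SE 0.12, edgeR adjusted p = 0.150). Ube2l6, the conjugating enzyme of ISG15, fell from 1827 ± 392 CPM in WT to 583 ± 176 CPM in Ifngr1_KO (-1.67, SE 0.12), as did Uba7, its activating enzyme (-1.13, SE 0.19, edgeR adjusted p = 0.00810), and Herc6, a ligase (-0.89, SE 0.16, adjusted p = 0.0143). With the mitochondrial covariate Uba7 and Herc6 were not called, at an adjusted p of 0.319 and 0.292, and Herc6 was also not called without mouse 8 or 9. The lists were chosen with earlier results of these data known.

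**Figure D5:**
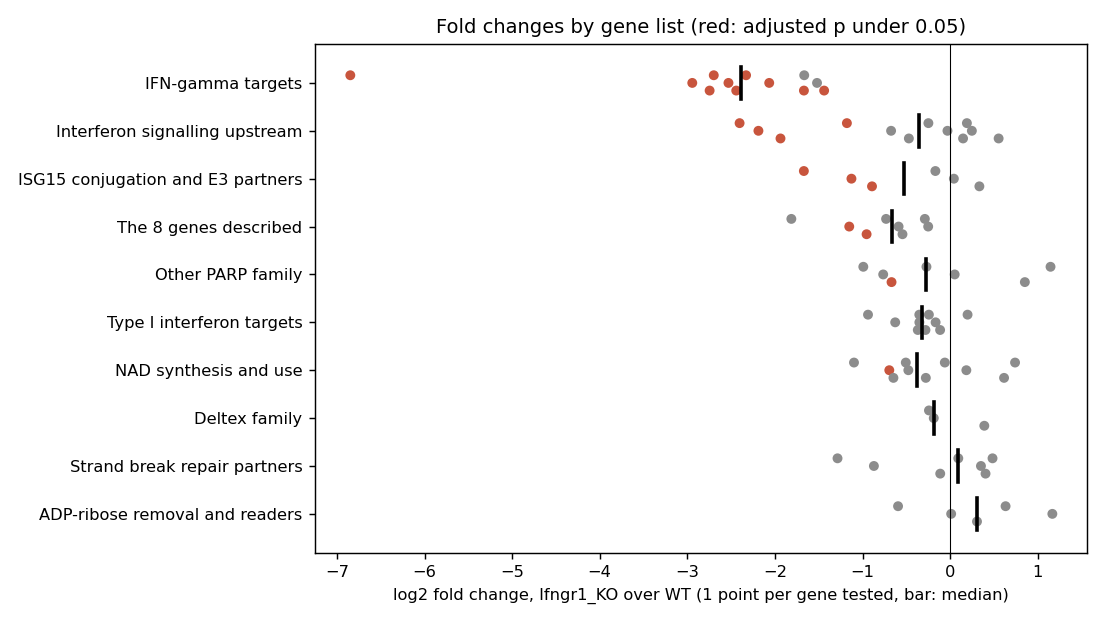
Log2 fold change, Ifngr1_KO over WT (x axis), of each gene tested in 10 lists, with a bar at the list's median and red for an adjusted p under 0.05 (edgeR). The median is -2.39 for interferon gamma targets, -0.66 for the 8 genes and -0.32 for type I interferon targets.

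The genes most like Dtx3l and Parp10 in their spread over the 16 libraries, once each genotype's mean was removed, were sought among the 5156 genes whose log2 CPM averaged 3 or more. For Dtx3l these were Nrbp1 (Pearson r = 0.976), Sema4d (0.946) and Cpne1 (0.946), and without mouse 7 the values were 0.888, 0.762 and 0.776 over 14 libraries. For Parp10 they were Smox (0.926), Tsc22d4 (0.922) and Arid5a (0.914), and for Parp1 Mrpl48 (0.842), 0610030E20Rik (0.791) and Snx6 (0.755). The edgeR adjusted p of these 9 genes ran from 0.166 to 0.829. On the same measure Parp9 had r = 0.772 with Dtx3l and 0.761 with Parp10, and 0.374 and 0.684 without mouse 7. The points share libraries and depth, and these values describe the libraries only.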

How the data were processed

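The authors deposited 1 table of whole-number estimated counts per Ensembl gene, 1 column per sample, without scaling, and the submitters' processing notes name mm10 as the build and Salmon 0.14.2 and DESeq2 1.22.1 as tools. The sources used here give neither the purpose of DESeq2 nor the transcript annotation. Per the labels' protocols, 1 ng of RNA was primed with oligo-dT, amplified by 13 PCR cycles and made into libraries by Nextera XT, without molecular identifiers or strand. Groups and mouse numbers came from the titles, and the design text ties both libraries of a number to 1 mouse. Names and positions came from GENCODE M21, and 37 identifiers had no name there, with at most 9.37e-04% of a library.

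Genes were filtered by filterByExpr (9851 kept, 99.7% of counts), scaled by TMM and tested across all genes with edgeR 4.0.16 in R 4.3.3 (robust quasi-likelihood, mouse as block, threshold 0.05). The SE was taken as the absolute log2 fold change over the root of F, and intervals are at 95%. Log2 values per library used a prior count of 2, with 0.5 as an alternative for differences between genes. The 2 libraries of a mouse deviated together weakly (mean correlation 0.138 within mice, range 0.0246 to 0.314, and -0.0180 between mice). The 8 genes and the lists were chosen with earlier results of these data known. Genes named are the 8, Ifngr1, up to 6 called genes of each list by p (else the 2 most abundant), tested genes within 200 kb of the cluster and the 3 most similar genes, beside any said to be singled out. Tiparp, Dtx3, Parp2, H2afy, Isg15, Plec, 2010005H15Rik, cell type markers and list genes that were not tested are named outside this rule. Alternatives were no block, other scaling and filters, DESeq2 1.42.0, limma-voom (limma 3.58.1) with quality weights, the mitochondrial share (13 genes) as covariate and omission of each mouse. The test was also run on data simulated from its own fitted model, which cannot show how it behaves with an outlying library. The similarity without mouse 7 was added after seeing the data. No sample was left out. Results for some genes are not reported here.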

Additional observations from a re-analysis of the deposited data

Results flagged for a closer look

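Among 62 groups of 8 libraries (31 named genes in 2 genotypes), 3 held a library that stood far from the other 7 by Dixon's 95% limit for the gap to the nearest library over the whole range. Chance flags about 1 in 20 groups. All 3 were the Ifngr1_KO library of mouse 7 at the low end. Dtx3l was at 49.3 CPM there, with the next lowest at 134 CPM. Oasl2 was at 721 CPM, with the next lowest at 1487 CPM, and Igtp was at 39.2 CPM, with the next lowest at 125 CPM.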

How the results depend on the processing

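All 8 genes kept a fold change below 0 in all settings in which they were tested, except Parp1, which had log2 fold changes of 0.141, 0.124 and 0.0797 without mouse 4, 6 or 9 (0.141 at most and -0.775 at least over the 8 omissions). Parp11, Parp8 and Parp1 were not tested with a mean CPM of at least 10. With the mitochondrial share as covariate, together with the replicate block, 93 genes were called in all and 0 of the 8, with Dtx3l at -0.627 and Parp10 at -0.889. Dtx2 was then at 0.0575, Irf7 at 0.0265, Dirc2 at -1.33, Gm15564 at -0.129, Fam162a at -0.115 and Stfa2l1 at -0.216. DESeq2 called 1060 genes (572 lower, 488 higher) and 4 of the 8, with Parp9 at -0.581 and Parp11 at -1.81, and limma-voom 597 genes and 2 of the 8, with Dtx2 at 0.0366. Without the replicate block 268 genes were called, with Parp11 at -1.66, and no other call of the 8 changed. With library totals in place of TMM all genes had a median log2 fold change of 0.157 against 0.0455, and 164 genes were lower and 102 higher against 229 and 47. With no filter Adprh was at -0.0141. A mean CPM of at least 10 gave 244 lower and 126 higher. Leaving out 1 mouse gave 163 to 412 genes in all and 1 to 2 of the 8. Dtx3l then had -1.263 to -0.966. The ranges of genes that changed sign were -0.343 to 0.0287 for Dtx2, -0.197 to 0.306 for Fam162a, -0.0425 to 0.0651 for Adprh (-0.0220 without mouse 2) and -0.0973 to 0.865 for Dirc2 (-0.0533 without mouse 5). Minus Parp1, the within-mouse difference ran from -0.862 to 0.227 for Parp9, -0.496 to 0.439 for Parp14 (0.0302 without mouse 3), -0.740 to 0.00805 for Parp12 and -0.949 to 0.0463 for Parp8, highest without mouse 7. Dtx3l and Parp14 in Ifngr1_KO had r = -0.474 without mouse 7. Genes at a few CPM, Parp1 and Parp8 among them, rest on few counts per library. The causes of these shifts were not tested.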
